A study of Mus musculus with 6 samples.

Results

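The mitochondrial respiratory chain and ATP synthase were represented by 71 of the 8252 genes named on the array, through 98 of its 12488 probe sets. A probe set, a group of short probes made to report 1 transcript, was included if its single platform gene symbol began with Nduf, Uqcr, Cox4 to Cox8 or Atp5, or was Sdha, Sdhb, Sdhc or Sdhd. Members were grouped by complex: 38 probe sets for complex I, 4 for complex II, 7 for complex III, 23 for complex IV, 22 for complex V and 4 for the assembly factors Ndufaf1 and Ndufaf4. The rule used gene symbols only and no measured value.

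Livers of 6 male mice, wild type, of the C57BL/6J strain and 8 to 10 weeks old, were each read on an array. Of these, 3 (replicates 1, 12 and 3) were sampled 1 day after ligation and division of the common bile duct (BDL), which stops the outflow of bile, and the other 3 (replicates 1, 2 and 3) 1 day after a laparotomy without ligation (sham). Both groups had surgery under methoxyflurane, so neither is an unoperated liver. In whole liver, fewer cells of a type and less RNA per cell cannot be told apart.

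The respiratory chain sits in the inner mitochondrial membrane. Complex I takes electrons from NADH and complex II takes them from succinate. Complex III passes them from ubiquinol to cytochrome c, and complex IV hands them to oxygen. Complexes I, III and IV pump protons, and complex V, the ATP synthase, uses the proton gradient to make ATP. Most subunits are encoded in the nucleus and imported, while a few core subunits are encoded in mitochondrial DNA. Hepatocytes are rich in mitochondria, and bile acids that accumulate in cholestasis are known to disturb mitochondrial function. Of the mitochondrially encoded subunits listed for comparison, 0 of 26 symbols matched a probe set, so the values below concern nuclear genes only.

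Transcripts of the respiratory chain and ATP synthase differed little between BDL and sham livers, and the small differences were mostly below 0. A probe set was tested where at least 3 of 6 arrays exceeded a floor of 152.7, and 83 of the 98 members passed this filter. Of these 83, 62 had a lower and 21 a higher mean log2 signal in BDL, with a median difference of -0.12. Over all 9542 tested probe sets 51.2% of the differences were below 0 and the median was -0.01. Differences ranged from -1.10 for a probe set of Atp5g2 to 0.46 for a probe set of Cox6c. Of the 83, 71 were smaller than 0.5 in size, beside 6988 of all 9542 tested probe sets. No member passed an adjusted p of 0.05 in limma, fitted across all probe sets with Benjamini-Hochberg adjustment, and the lowest adjusted p among members was 0.832. The same limma test called 0% of all probe sets after adjustment and 5.78% at an unadjusted p under 0.05. Below that unadjusted level 1 member was lower and 0 were higher in BDL, beside 2.39% lower and 3.4% higher over all probe sets. All 3 BDL signals lay below all 3 sham signals for 5 members, 6.02% of those tested, against 4.32% of all probe sets, and above them for 0 members against 6.32%. The share with lower, non-overlapping signals is close to the background and is not a result about the members.

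**Figure D1:**
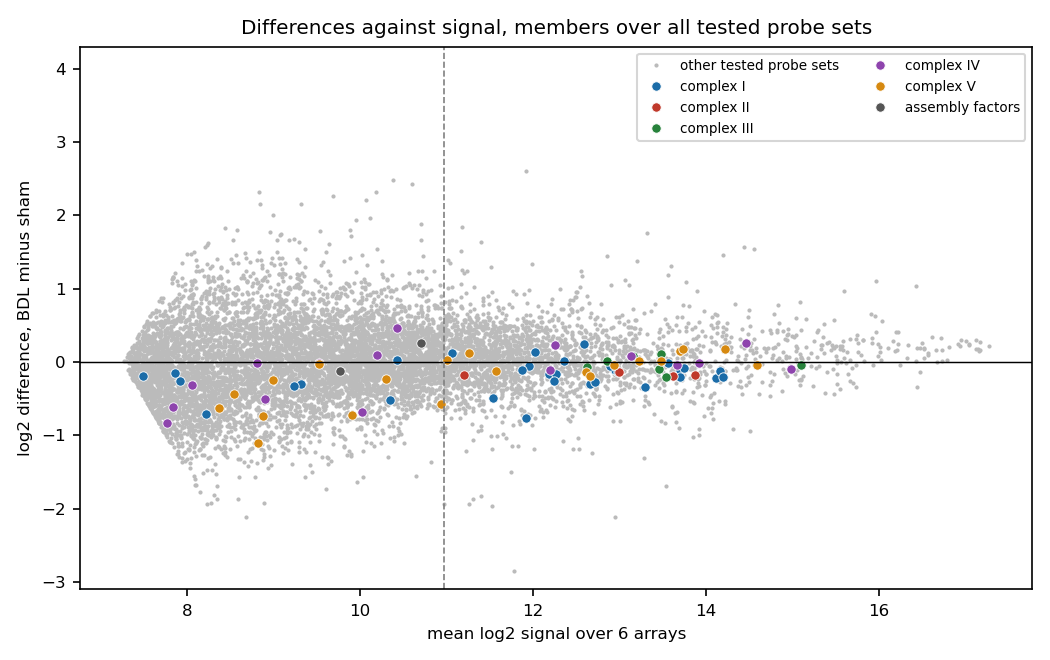
Log2 difference (BDL minus sham) of each tested probe set against its mean log2 signal over the 6 arrays; grey points are other probe sets, coloured points the 83 tested members, and the dashed line marks a signal of 2000. Members above that line sit close to 0 (median -0.09), while those below it spread further and lean below 0 (median -0.31). Over all tested probe sets the median was 0.04 above a signal of 2000 and -0.04 up to it.

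How well each difference was bounded depended on signal. The 95% confidence interval of the limma difference lay within a 2-fold change in both directions for 56 of 83 members, 67.5%, against 34.5% of all tested probe sets. A geometric mean signal of 2000, chosen after the values were seen, separated 55 brighter from 28 dimmer members. Among the brighter members 48 of 55 intervals lay within a 2-fold change, compared with 8 of 28 among the dimmer ones. The median residual SD between replicates was 0.27 (log2) in the brighter and 0.42 in the dimmer members. All probe sets above 2000 had a median residual SD of 0.34, with 52.2% of intervals within a 2-fold change. The 7 brighter members whose intervals went beyond 2-fold were Ndufv3, Ndufa13, Ndufa5, Ndufa2, Cox7a2l and a probe set each of Atp5c1 and Atp5d.

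Sham replicate 1 had few low signals across the array, with 12.5% of all signals at or under the floor against 24.4% to 31.3% on the others. It was the highest of the 6 arrays for 18 of the 28 dimmer members and the lowest for 25 of the 55 brighter members. BDL replicate 3 was the lowest array for another 22 of the brighter members. Sham replicate 3 was the highest for 22 of them and BDL replicate 12 for 14. Without sham replicate 1, the median of the dimmer members was -0.17 in place of -0.31 and that of the brighter members -0.20 in place of -0.09. Without sham replicate 3, the median was 0.02 for the brighter members and -0.50 for the dimmer ones. The median over all members stayed below 0 without any 1 of the 6 arrays, between -0.20 and -0.05.

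To set the arrays side by side, each log2 signal was centred on its probe set's mean over the 6 arrays and the median over members was taken. In the order of replicates given above, the 3 BDL arrays had medians of -0.09, 0.09 and -0.17 over all members, and the 3 sham arrays -0.02, 0.10 and 0.11. Signals below follow the same order. The groups overlapped, since BDL replicate 12 lay above sham replicate 1. The group means were -0.06 ± 0.13 in BDL and 0.06 ± 0.07 in sham (SD, n = 3). Over all tested probe sets the array medians were between -0.02 and 0.02 in BDL and between -0.13 and 0.11 in sham.

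**Figure D2:**
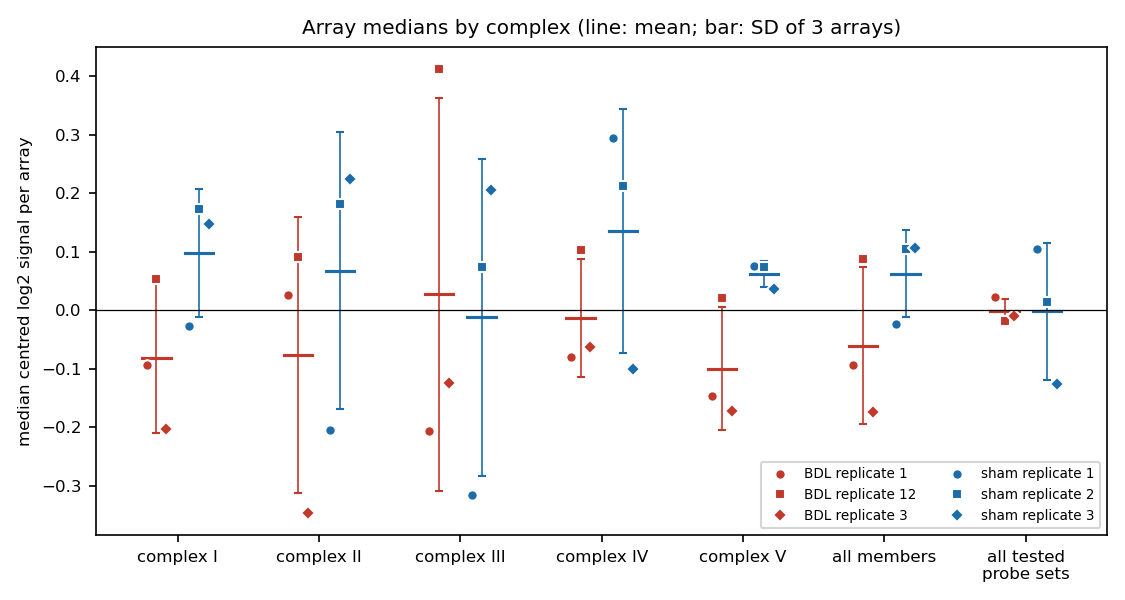
Median centred log2 signal of each array (y axis) for complexes I to V, all members and all tested probe sets; symbols are single arrays, red BDL and blue sham, horizontal lines are group means and bars the SD of 3 arrays. Within complexes II and III the SD of each group exceeds the difference between the group means, and within complex IV that of sham does. Complex V has its 3 sham arrays close together, while its BDL arrays lie between -0.17 and 0.02.

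Promoters of respiratory genes are known to carry sites for a few shared factors, above all NRF1 and the ETS factor GABP. RefSeq windows of 300 bases around the gene start (GRCm38.p6, 250 before and 50 after) matched 58 of the 71 member genes. An NRF1 motif of 10 letters with 1 free position, searched on both strands as were the others, was found in 12 of 58 member genes, 20.7%, against 5.19% of all 27025 genes with a window and 9.97% of the 6573 genes on the array. The ETS motif CCGGAAG was found in 16, 27.6%, against 9.93% of all genes and 17.1% of those on the array. A YY1 motif of 10 letters was found in 3, 5.17%, against 0.995% of all genes and 1.98% of those on the array. The ERR motif TNAAGGTCA was found in 1, 1.72%, against 1.43% and 0.989%. The Sp1 motif GGGCGG was found in 28. The Sp1 share was 48.3%, against 38.2% of all genes and 63% of those on the array. These matches are letters in a window, not measured sites.

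The 250 bases before the gene start are shown for 4 members of different complexes whose signals are described below, 5′ to 3′ on the gene's strand, with matches to the motifs above in capitals. Ndufv3 (chr17:31519865-31520114, plus strand) and Atp5pb (chr3:105959264-105959513, minus strand) had non-overlapping signals. Sdhd (chr9:50603850-50604099, minus strand) and Cox6a1 (chr5:115348959-115349208, minus strand) had overlapping signals.
Ndufv3: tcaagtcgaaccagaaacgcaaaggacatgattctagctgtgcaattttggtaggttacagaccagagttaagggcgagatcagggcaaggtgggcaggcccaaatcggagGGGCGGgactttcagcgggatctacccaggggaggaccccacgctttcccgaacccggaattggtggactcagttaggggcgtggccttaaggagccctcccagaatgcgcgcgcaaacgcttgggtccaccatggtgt
Sdhd: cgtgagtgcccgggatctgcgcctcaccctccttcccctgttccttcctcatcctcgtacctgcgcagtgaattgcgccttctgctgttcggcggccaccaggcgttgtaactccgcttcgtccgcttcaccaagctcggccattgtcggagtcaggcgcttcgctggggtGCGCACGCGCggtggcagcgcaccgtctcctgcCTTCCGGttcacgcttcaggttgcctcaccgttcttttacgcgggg
Cox6a1: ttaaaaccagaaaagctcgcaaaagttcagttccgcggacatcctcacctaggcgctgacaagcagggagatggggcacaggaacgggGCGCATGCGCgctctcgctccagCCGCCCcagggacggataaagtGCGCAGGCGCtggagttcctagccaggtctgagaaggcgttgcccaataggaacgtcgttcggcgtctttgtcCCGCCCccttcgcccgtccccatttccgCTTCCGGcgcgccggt
Atp5pb: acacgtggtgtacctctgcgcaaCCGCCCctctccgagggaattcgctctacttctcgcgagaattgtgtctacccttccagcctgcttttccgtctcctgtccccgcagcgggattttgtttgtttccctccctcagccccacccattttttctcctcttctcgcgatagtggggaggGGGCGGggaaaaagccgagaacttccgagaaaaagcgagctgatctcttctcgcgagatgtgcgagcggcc
Cox6a1 has 2 NRF1 matches, 1 ETS match and 2 Sp1 matches in this stretch, and Sdhd has 1 NRF1 and 1 ETS match. Ndufv3 has 1 Sp1 match and Atp5pb has 2, with no match to the other motifs. Sdhd also matches the ERR motif after its gene start, outside the bases shown, and 1 Sp1 match each of Sdhd (across the start) and Ndufv3 (after it) are likewise not shown.

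Complex I, the NADH dehydrogenase, had most of its members below 0. Of 33 tested probe sets 28 had lower means in BDL, with a median difference of -0.16 and a range from -0.77 to 0.24. None had an unadjusted p under 0.05, and the count below 0 was between 22 of 33 without sham replicate 3 and 31 of 33 without BDL replicate 12. The array medians were -0.09, 0.05 and -0.20 in BDL and -0.03, 0.17 and 0.15 in sham, so the groups overlapped. Ndufv3, a small accessory subunit of the NADH-oxidizing module, had signals of 2579, 2534 and 2395 in BDL and 3897, 3479 and 3191 in sham. All BDL signals were below all sham signals, and the replicates of each group lay close together. The log2 difference was -0.49 (SE 0.27, 95% interval -1.10 to 0.12), 1.40-fold lower in BDL, with an unadjusted limma p of 0.104 and an adjusted p of 0.832. Without sham replicate 1 it was -0.41. Ndufa13, also known as GRIM-19, a membrane-arm subunit, had signals of 3156, 3674 and 2253 in BDL and 9264, 3946 and 3511 in sham. Its groups overlapped, and the high mean in sham came from replicate 1. The difference of -0.77 (SE 0.42) was -0.33 without that array.

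Ndufv2, an iron-sulfur subunit of the NADH-oxidizing module, was read by a pair of probe sets, both with differences below 0. One gave 1108, 977 and 1175 in BDL and 2031, 1487 and 1254 in sham, with the groups apart and a difference of -0.52 (SE 0.30), which was -0.33 without sham replicate 1. The brighter one gave 6252, 8428 and 8423 in BDL and 5491, 10096 and 9986 in sham, with the groups overlapping and a difference of -0.11 (SE 0.34). Without sham replicate 1 the brighter one differed by -0.40. Ndufv1, the flavin-binding subunit where NADH is oxidized, had 17123, 20062 and 15614 in BDL and 17204, 21849 and 18493 in sham. Its difference was -0.12 (SE 0.28, interval -0.76 to 0.51). Ndufs1, the largest iron-sulfur subunit, differed by -0.11 (SE 0.27), and Ndufs3, a core subunit of the ubiquinone-reducing arm, by -0.14 (SE 0.33). Ndufc2, a membrane-arm subunit, had 128, 542 and 100.2 in BDL and 634, 431 and 204 in sham. The groups overlapped. Its difference of -0.71 (SE 0.59) came with 2 of 3 BDL signals under the floor. It was -0.35 without sham replicate 1, -0.41 without BDL replicate 1 or 3, -1.17 without sham replicate 3 and -1.32 without BDL replicate 12. Ndufb6 had the largest positive difference of complex I, at 0.24 (SE 0.30) with overlapping groups. Ndufa3, Ndufb2 and Ndufb7, small accessory subunits of the membrane arm, were each read by several probe sets. The brighter probe set of Ndufa3 had 13042, 11977 and 11083 in BDL and 7943, 12629 and 17607 in sham, a difference of -0.01 (SE 0.35). The dimmer one differed by -0.29 (SE 0.49). The 2 tested probe sets of Ndufb2 and the 2 of Ndufb7 had differences between -0.21 and -0.09 with overlapping groups. Of the 38 complex I probe sets, 5 were not tested.

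Complex II, the succinate dehydrogenase that also belongs to the citric acid cycle, had all 4 subunits just below 0. Sdha, the flavoprotein that oxidizes succinate, had signals of 2551, 2284 and 1873 in BDL and 2320, 2493 and 2721 in sham. Sdhd, a membrane anchor, had 12107, 14558 and 9222 in BDL and 10481, 16316 and 14352 in sham. Sdhb had 7063, 9335 and 7220 in BDL and 6341, 9446 and 10559 in sham. The groups overlapped for these 3 genes and for Sdhc, whose signals were 16148, 14898 and 11673 in BDL and 13565, 16712 and 17722 in sham. The differences were -0.18 (SE 0.28) for Sdha, -0.14 (SE 0.32) for Sdhb, the iron-sulfur subunit, -0.17 (SE 0.29) for Sdhc, the other anchor, and -0.20 (SE 0.32) for Sdhd. All 4 intervals lay within a 2-fold change. The array medians were 0.03, 0.09 and -0.35 in BDL and -0.20, 0.18 and 0.22 in sham. BDL replicate 3 and sham replicate 1 were the 2 low arrays. The median difference of -0.17 became -0.32 when sham replicate 1 was left out and -0.04 when BDL replicate 3 was.

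Complex III, the cytochrome bc1 complex, showed the smallest range of differences among the complexes with more than 4 probe sets, from -0.20 for Uqcrb to 0.11 for Uqcrc1. Of 7 tested probe sets 4 were below and 3 above 0, and all 7 intervals lay within a 2-fold change. Uqcrc1, a core subunit facing the matrix, had signals of 11554, 12762 and 11256 in BDL and 8359, 11993 and 13258 in sham. Uqcrb, which lies near the ubiquinone site, had 10268, 14042 and 9355 in BDL and 12384, 12138 and 13662 in sham. The groups overlapped for both, as for every probe set of this complex. Uqcr10, a small subunit, had 10767, 15879 and 7534 in BDL and 11440, 13487 and 10303 in sham, a difference of -0.10 (SE 0.35). Uqcrh, the hinge protein at the cytochrome c docking site, had 8900, 11172 and 8346 in BDL and 7352, 10412 and 9216 in sham, a difference of 0.08 (SE 0.29). Uqcrq, another small subunit, had 26338, 47055 and 34004 in BDL and 24558, 36809 and 50210 in sham, a spread within each group that exceeded the difference of -0.04 (SE 0.37). The array medians were -0.21, 0.41 and -0.12 in BDL and -0.32, 0.07 and 0.21 in sham. BDL replicate 12 was highest and sham replicate 1 lowest. The median difference was -0.04. Leaving out BDL replicate 12 gave -0.25 and leaving out BDL replicate 1 gave 0.12, so its sign rested on single arrays.

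Complex IV, cytochrome c oxidase, had 11 tested probe sets below and 5 above 0, with a median of -0.03. Several of its subunits exist in a form found in liver and most tissues and in a form typical of heart and skeletal muscle. Cox6a1, the form found in liver, had signals of 32716, 38957 and 24184 in BDL and 28582, 34565 and 37540 in sham. The difference was -0.09 (SE 0.31, interval -0.79 to 0.61) with overlapping groups. Cox6a2, the heart and muscle form, had signals of 128, 121 and 186 in BDL and 466, 264 and 200 in sham. All BDL signals were below all sham signals, but 2 of 3 BDL signals were under the floor. The difference on the floored scale was -0.83 (SE 0.36), 1.78-fold lower in BDL, with an unadjusted limma p of 0.0487, the lowest of any member, and an adjusted p of 0.832. Without sham replicate 1 it was -0.49 (SE 0.30, adjusted limma p of 0.9997).

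Cox7a2, the liver form of another small subunit, had 17042, 17120 and 12831 in BDL and 13553, 18317 and 15293 in sham, a difference of -0.01 (SE 0.29). Its muscle counterpart Cox7a1 was not tested: its signals were 137, 62.9 and 35.4 in BDL, all under the floor, and 698, 198 and 71.8 in sham, where only replicate 3 was under it. Cox7a2l, a related protein, had 4032, 6852 and 5354 in BDL and 3298, 5609 and 4983 in sham, a difference of 0.23 (SE 0.34). Cox8b, a muscle form, had 299, 341 and 639 in BDL and 872, 645 and 328 in sham on its tested probe set, a difference of -0.50 (SE 0.45) with overlapping groups, and its other probe set was above the floor on 1 array. The difference was -0.19 without sham replicate 1, -0.29 without BDL replicate 1, -0.83 without BDL replicate 3 and -0.90 without sham replicate 3. Cox8a, the form found in liver, was at or under the floor on all 6 arrays, at 27.4 to 139.5. The probe set named Cox8c, a form known from testis, had signals of 4953, 4011 and 4674 in BDL and 5734, 5492 and 3681 in sham and a difference of -0.11 (SE 0.30). These last readings go against the tissue that each form is known for, and whether the probe sets report the named transcripts was not tested.

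Markers of muscle and fat were set beside the muscle forms. Of 11 muscle markers, 6 were tested, with 3 positive and 3 negative differences (median -0.06) and 0 at an unadjusted p under 0.05. Their array medians were 0.50, -0.38 and -0.18 in BDL and 0.76, 0.23 and -0.63 in sham. By gene, Myh7 differed by -0.58, Actn3 by -0.47 and Myh4 by -0.23, while Acta1 differed by 0.37, Ckm by 0.17 and Myl1 by 0.11. Of 7 fat markers 4 were tested, with a median difference of -0.43 and array medians of 0.03, -0.14 and -0.62 in BDL and 0.77, 0.27 and -0.51 in sham. Sham replicate 1 was the highest array for both lists, as it was for Cox6a2 and Cox7a1. The part of such cells, or of that array's small share of low signals, in the readings of the muscle forms was not tested.

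The remaining complex IV subunits lay near 0 or were dim. Cox6c, a small membrane subunit, was read by 3 tested probe sets that disagreed in sign. The brightest had 23313, 27294 and 23798 in BDL and 17853, 19646 and 24913 in sham, a difference of 0.26 (SE 0.28). The dimmest had 79.5, 268 and 142 in BDL and 281, 454 and 177 in sham, a difference of -0.62 (SE 0.42) that became -0.28 when sham replicate 2 was left out and -0.96 when sham replicate 3 was. The other had 1468, 1814 and 1582 in BDL and 1785, 880 and 1023 in sham, a difference of 0.46 (SE 0.34). All 3 overlapped between groups. Without sham replicate 1, the last of these differed by 0.77 (SE 0.29, unadjusted limma p of 0.0301, adjusted limma p of 0.9997). Cox4i1, a regulatory subunit that binds nucleotides, had 1074, 1654 and 993 in BDL and 906, 1436 and 1109 in sham, a difference of 0.10 (SE 0.33), and one of -0.02 (SE 0.29) on its other probe set. Cox5b, a zinc-binding subunit, differed by -0.04 (SE 0.31), and Cox7b by 0.08 (SE 0.29). Cox5a differed by -0.32 (SE 0.48), with signals from 152 to 542. Cox6b1, which lies at the dimer contact on the outer side, had 1013, 828 and 662 in BDL and 2466, 1388 and 662 in sham. Its difference of -0.68 (SE 0.47) became -0.22 when sham replicate 1 was left out and -1.17 when sham replicate 3 was. Cox6b2, its testis form, had 324, 433 and 625 in BDL and 797, 470 and 244 in sham, a difference of -0.02 (SE 0.46).

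Complex V, the ATP synthase, had 14 of 21 tested probe sets below 0, a median of -0.12 and 0 at an unadjusted p under 0.05. Its array medians were -0.15, 0.02 and -0.17 in BDL and 0.08, 0.07 and 0.04 in sham, so every BDL median lay below every sham median. The median difference ranged from -0.05 without sham replicate 3 to -0.20 without sham replicate 1. Atp5a1, the alpha subunit of the catalytic head, had signals of 22405, 27852 and 22872 in BDL and 19577, 26092 and 30826 in sham, a difference of -0.05 (SE 0.30, interval -0.73 to 0.64). Atp5c1, the gamma subunit of the rotating shaft, had 12208, 12610 and 9716 in BDL and 10786, 11633 and 11697 in sham on one probe set, a difference of 0.01 (SE 0.28). On its other probe set the difference was 0.15 (SE 0.39). Atp5o, the stalk subunit OSCP that ties the head to the membrane part, differed by -0.04 (SE 0.31).

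Atp5pb, subunit b of the peripheral stalk, had the largest difference of complex V among probe sets whose groups were apart. Its signals were 783, 826 and 637 in BDL and 1967, 1018 and 927 in sham. All BDL signals were below all sham signals, and sham replicate 1 stood well above the rest. The difference was -0.72 (SE 0.36, interval -1.54 to 0.09), 1.65-fold lower in BDL, with an unadjusted limma p of 0.0754 and an adjusted p of 0.832. Without sham replicate 1 it was -0.39 (SE 0.29). Atp5d, the delta subunit of the central stalk, was read by 4 tested probe sets. One of them gave 1868, 1585 and 1386 in BDL and 3354, 1937 and 2094 in sham, with the groups apart and a difference of -0.58 (SE 0.32), or -0.33 without sham replicate 1. The other 3 differed by -0.12 to 0.13 with overlapping groups, and by -0.26 to 0.02 without sham replicate 1.

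The proton-translocating c ring is encoded by the genes Atp5g1, Atp5g2 and Atp5g3, whose mature proteins are identical and whose import sequences differ. Atp5g3 was not analysed here. Atp5g2 had 446, 426.5 and 113 in BDL and 1393, 568 and 361 in sham on one probe set, with overlapping groups, 1 BDL signal under the floor and a difference of -1.10 (SE 0.58). On its other, brighter probe set it had 1979, 1995 and 2230 in BDL and 1856, 2015 and 2245 in sham, a difference of 0.02 (SE 0.27). Leaving out sham replicate 1 gave -0.56 for the first, and leaving out BDL replicate 3 gave -0.59. Atp5g1 had 217, 495 and 446 in BDL and 923, 683 and 352 in sham, a difference of -0.74 (SE 0.46), and -0.44 (SE 0.35) on its second probe set. The former became -0.36 if BDL replicate 1 was left out, -0.43 if sham replicate 1 was and -1.13 if sham replicate 3 was. The latter became -0.12 when sham replicate 1 was omitted. Atp5j2, subunit f of the membrane part, had 383, 264 and 188 in BDL and 489, 511 and 277 in sham, a difference of -0.62 (SE 0.38) with overlapping groups, which was -0.37 without BDL replicate 3. Among the small membrane subunits measured at higher signals, Atp5l (subunit g) differed by 0.18 (SE 0.32) and Atp5md by 0.18 (SE 0.34). A second, dim probe set of Atp5l differed by -0.25 (SE 0.34).

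**Figure D3:**
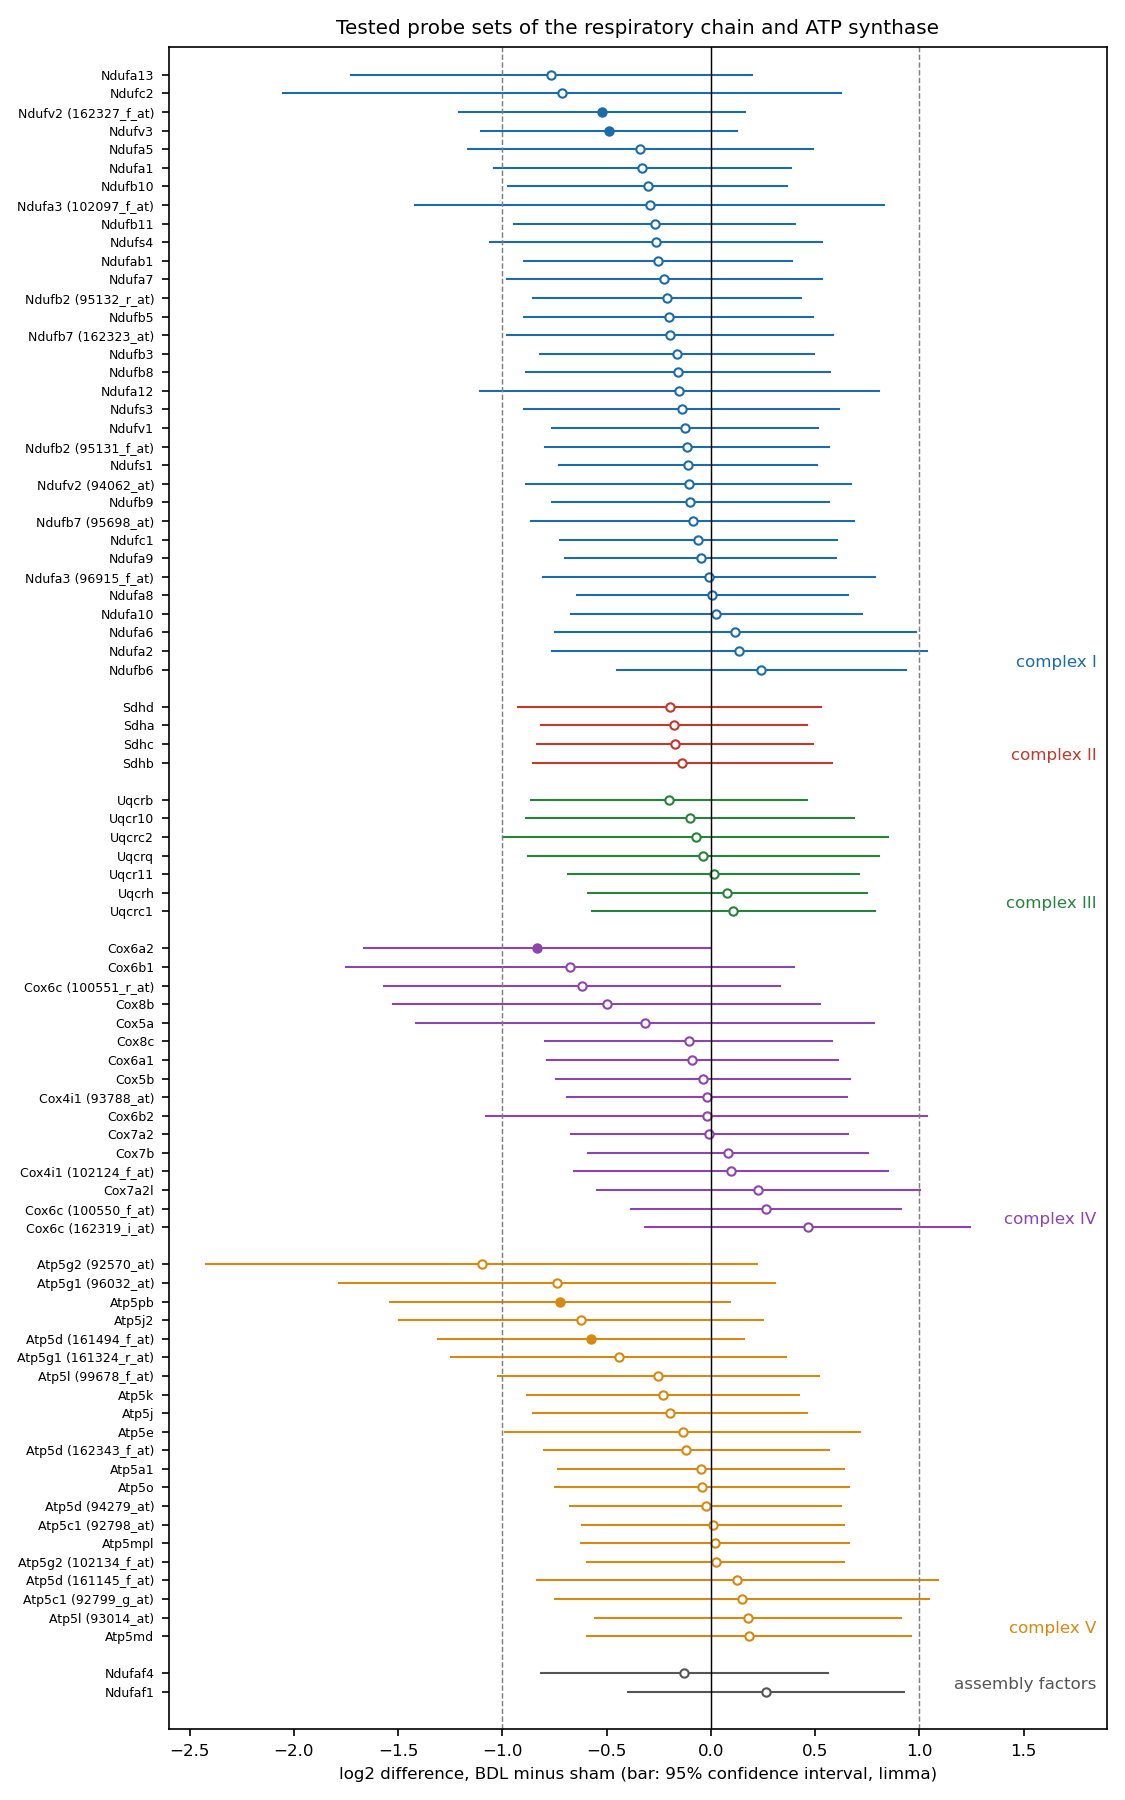
Log2 difference (BDL minus sham, x axis) of the 83 tested probe sets with 95% confidence intervals from limma, ordered within each complex; filled circles mark the 5 probe sets whose BDL and sham signals do not overlap, and dashed lines a 2-fold change. All intervals of complexes II and III stay within the dashed lines, whereas 10 of complex I, 8 of complex IV and 9 of complex V reach beyond them.

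**Figure D4:**
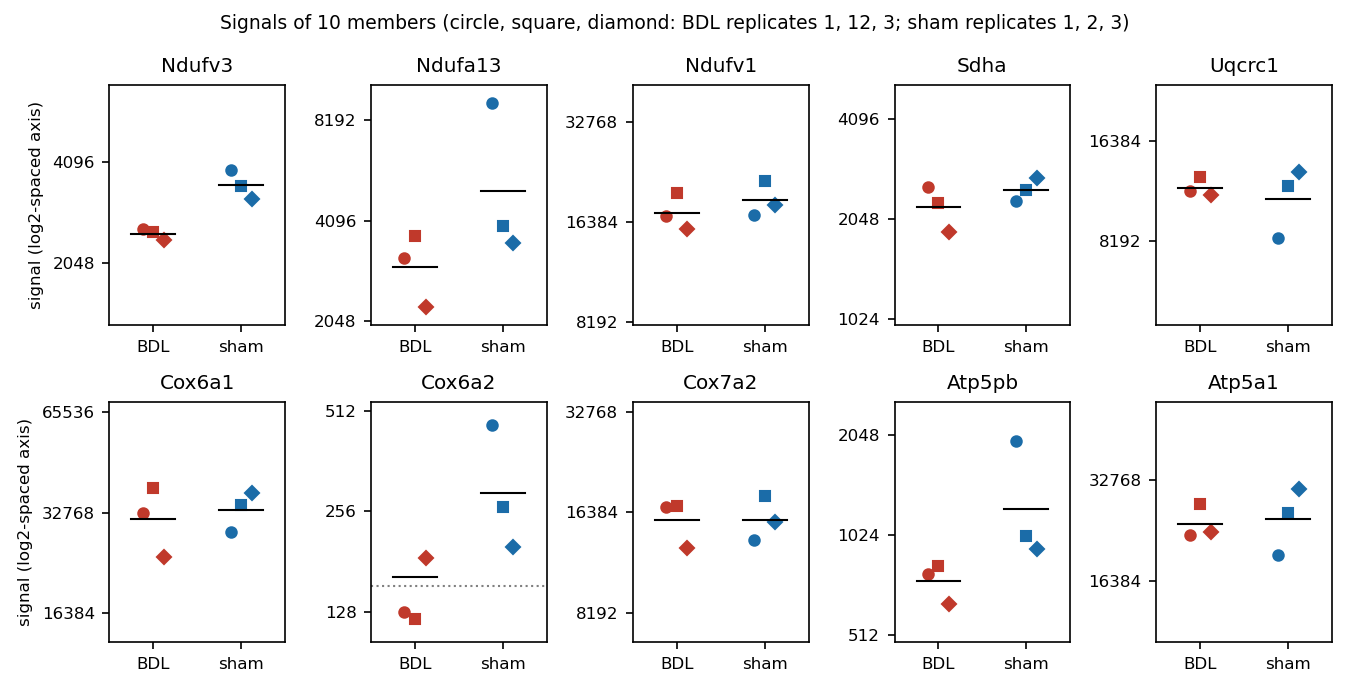
Signals on a log2-spaced axis for 10 members on the 6 arrays, with black lines at the geometric group means (signals under the floor set to it) and a dotted line at the floor of 152.7 where it falls in the panel. Ndufv3, Cox6a2 and Atp5pb have all BDL signals below all sham signals, with sham replicate 1 (blue circle) highest, and the other 7 overlap.

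The assembly factors of complex I were represented by 1 tested probe set each. Ndufaf1, needed to build the membrane arm, had 1987, 1694 and 1821 in BDL and 1901, 1266 and 1471 in sham, a difference of 0.26 (SE 0.29). Ndufaf4 had 845, 743 and 926 in BDL and 858, 741 and 1190 in sham, a difference of -0.13 (SE 0.30). Both overlapped between groups.

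Other mitochondrial genes were taken from lists and counted with 1 probe set per gene, the one with the highest mean log2 signal. None passed an adjusted p of 0.05. Electron carriers and partner enzymes had 8 of 10 tested genes above 0 and a median of 0.10. Cyc1, the cytochrome c1 of complex III that the naming rule left out, differed by 0.06 (SE 0.30), and Cycs, cytochrome c itself, by 0.17 (SE 0.30). Dhodh, which feeds electrons from pyrimidine synthesis to ubiquinone, differed by 1.12 (SE 0.42) with overlapping groups, but by -0.33 (SE 0.54) on another probe set. Coq7, an enzyme of ubiquinone synthesis, differed by 0.55 (SE 0.41), and Gpd2, the glycerol-phosphate shuttle dehydrogenase, by 0.52 (SE 0.49), with sham replicate 1 lowest for the former. Assembly and import factors had 11 of 17 above 0 and a median of 0.15. Of these, Cox17, a copper chaperone for complex IV, had 4945, 4215 and 3487 in BDL and 2757, 3612 and 2911 in sham, a difference of 0.44 (SE 0.29). Timm44, which anchors the import motor, differed by 0.53 (SE 0.38). Lrpprc, which stabilizes mitochondrial messenger RNA, differed by -0.39 (SE 0.29). Mitochondrial ribosomal proteins had 23 of 39 above 0 and a median of 0.04, and those with the lowest p were Mrpl33 at 1.01 (SE 0.52), Mrps25 at 0.46 (SE 0.35) and Mrpl20 at -0.40 (SE 0.32), all with overlapping groups. Citric acid cycle and pyruvate dehydrogenase genes had 12 of 20 below 0 and a median of -0.11, with Pdk1, a kinase that inhibits pyruvate dehydrogenase, at -0.49 (SE 0.32). Idh2, an isocitrate dehydrogenase of the matrix, differed by -0.53 (SE 0.40). Dlat, the acetyltransferase of pyruvate dehydrogenase, differed by 0.93 (SE 0.58) on one probe set and by -0.60 (SE 0.48) on another.

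Carriers and uncoupling proteins had 10 of 13 tested genes below 0 and a median of -0.25. At an unadjusted limma p below 0.05 there was 1 gene of the 13 in each direction, beside 3.4% higher and 2.39% lower over all probe sets. Slc25a4, the muscle and heart form of the ADP/ATP carrier, had 497, 552 and 514 in BDL and 180, 337 and 232 in sham. All BDL signals were above all sham signals, with a difference of 1.11 (SE 0.32), 2.16-fold higher, and an adjusted limma p of 0.827. Slc25a5, the form typical of proliferating cells, differed by -0.15 (SE 0.32) on the brightest of its 3 probe sets and by -0.73 and -0.81 on the others. Slc25a3, which imports phosphate for ATP synthesis, had 406, 192 and 215 in BDL and 428, 643 and 443 in sham, with the groups apart and a difference of -0.95 (SE 0.37). Slc25a15, the ornithine carrier of the urea cycle, had 17431, 10835 and 20130 in BDL and 20538, 26770 and 23010 in sham, also apart, with a difference of -0.58 (SE 0.33).

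Regulators of respiratory genes had 10 of 16 tested genes above 0 and a median of 0.07. Myc, a growth factor-induced transcription factor, had the lowest p of this list, with 395, 459 and 424 in BDL and 103, 149 and 107.5 in sham. All 3 sham signals were under the floor and so were set to 1 value, which makes its difference and p depend on the floor. Hif1a, the oxygen-regulated factor that shifts cells from respiration towards glycolysis, had 7310, 7598 and 7348 in BDL and 4357, 4888 and 4521 in sham. The replicates of each group lay close together and the groups were apart. The difference was 0.69 (SE 0.26), 1.62-fold higher in BDL, and 0.87 (SE 0.31) on its other probe set, with an adjusted limma p of 0.832 on the first. Polg2, the accessory subunit of the mitochondrial DNA polymerase, had 655, 627 and 437 in BDL and 974, 1292 and 704 in sham, with the groups apart and a difference of -0.77 (SE 0.34). Gabpa, the DNA-binding subunit of GABP, differed by 0.38 (SE 0.32) on its brighter probe set, with overlapping groups.

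Cell type markers were measured beside these values. The arrays read liver: Alb had signals of 125084 to 199675 on all 6 arrays, and 8 of 10 hepatocyte markers were tested, with a median difference of 0.03 and 4 of 8 below 0. Among them Ttr, which carries thyroid hormone in plasma, had 3576, 4520 and 4824 in BDL and 11138, 6456 and 14576 in sham, apart between groups, with a difference of -1.25 (SE 0.36) and an adjusted limma p of 0.830. Their array medians were between -0.10 and -0.04 in BDL and between -0.34 and 0.39 in sham. Kupffer cell and macrophage markers had 9 of 11 above 0 and a median of 0.89, and their array medians were 0.44, -0.29 and 0.46 in BDL and 0.08, -0.16 and -1.06 in sham. Endothelial markers had 7 of 8 above 0 with a median of 0.64, and stellate cell markers 5 of 7 with 0.48. Endothelial array medians were 0.67, 0.48 and 0.12 in BDL and -0.76, 0.53 and -0.54 in sham. Those of stellate cell markers were 0.83, -0.19 and 0.39 in BDL and -0.22, -0.02 and -0.63 in sham. Medians were -0.77 for 5 lymphocyte, -0.14 for 9 neutrophil, 0.32 for 3 cholangiocyte and 0.32 for 2 erythroid markers. Lymphocyte array medians were -0.60, -0.24 and -0.31 in BDL and 1.24, 0.45 and -0.51 in sham. The groups overlapped for these 3 sets of array medians. The part of such cells in the respiratory gene values was not tested.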

How the data were processed

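Liver RNA from 3 BDL and 3 sham mice was hybridized to Affymetrix U74Av2 arrays, 20 µg cRNA and 1 mouse each, per the labels. The deposited linear intensity values were made by the authors with MicroArray Suite 4.0 and GeneChip software 3.1, per the series' design text. Settings and the scaling target were not given there. The 2% trimmed mean was 1501 on every array, so the deposited intensity values were kept. The median signal was 431 to 627.

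Low signals were raised to a floor of 152.7 (25th percentile over all arrays) before log2, which understates differences there, and no detection calls were used. After 66 control probe sets were removed, 9542 with at least 3 of 6 arrays above the floor were tested with limma 3.58.1 in R 4.3.3 (lmFit, eBayes, no covariate, Benjamini-Hochberg). SE is limma's moderated standard error. The 3 arrays per group limit the precision. The test was tested on simulated data with independent values, no floor, no filter and planted changes only in probe sets well above the floor. That run does not cover small differences or dim members.

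Names came from the platform annotation. All members were counted. By rule the text names, per complex, the 4 probe sets with the lowest p, tissue forms and genes with several probe sets, some by range, and the 3 genes with the lowest p of each other mitochondrial list, but not of the marker lists. Further genes were named after their values were seen. Of the member probe sets 36 have names marking shared or otherwise flagged designs. They include all tested probe sets of Cox6a1, Cox6b1, Cox6c and Cox8b. The probe sets of Ndufv2 and Atp5d with groups apart are also among them. Members, lists and tests were chosen with earlier results of these data known. Alternatives tried were quantile and median scaling, other floors, an added constant, other filters, a variance trend, robust variances, array weights, 1 probe set per gene, plain probe sets, leaving out each array and a replicate block. Batches were not known.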

Additional observations from a re-analysis of the deposited data

How the results depend on the processing

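With limma, 0 members passed the adjusted threshold in the main setting and in all alternatives. Counts of members lower at an unadjusted p under 0.05, 1 in the main setting, were 2 with the floor at the 10th percentile, without a filter and with array weights. As shares of members against all probe sets, these were 2.15% against 2.86%, 2.11% against 1.98% and 2.41% against 4.76%. The count was 0 under an added constant, a 40th-percentile floor, the stricter filter, a variance trend or robust variances. Counts higher were 0, and 1 with array weights, beside 569 of all 9542 probe sets. Leaving out 1 array gave 0 to 7 lower and 0 to 1 higher. The 7, without sham replicate 3, were 8.43% of members against 8.22% of all probe sets. Members with groups apart were 5 lower and 0 higher. With 1 probe set per gene or with plain probe sets, an alternative chosen after seeing the data, 3 were lower. These were 4.35% and 5.36% of those tested, against 4.32% of all probe sets. After quantile normalization 7.23% of members were lower against 5.99% of all probe sets, and 1 member was higher. Leaving out 1 array gave 5 to 16 lower and 0 to 2 higher. For groups apart and higher, the share over all probe sets was not counted in the alternatives. The lower share of members against that of all probe sets was 18.3% against 6.74% without sham replicate 1, 6.1% against 8.36% without sham replicate 2 and 19.3% against 17.9% without sham replicate 3. It was 18.3% against 9.08%, 19.3% against 8.83% and 8.43% against 7.08% without BDL replicates 1, 12 and 3. The median over members stayed below 0 in all alternatives, -0.20 to -0.05 without 1 array. The median of complex V, -0.12, was -0.0335 under the stricter filter, which tests fewer probe sets, and -0.20 to -0.0493 without 1 array. That of the assembly factors, 0.07, was -0.13 with the floor at the 10th percentile and without a filter, where more probe sets are tested, and -0.07 to 0.15 without 1 array. Medians without 1 array were -0.22 to -0.12 for complex I, -0.32 to -0.04 for complex II, -0.25 to 0.12 for complex III and -0.10 to 0.02 for complex IV. Of 83 members, 21 changed sign without sham replicate 1 among 82 tested then, and 18 without sham replicate 3. The labels give both groups the numbers 1 and 3. Deviations from the group means correlated at 0.21 for number 1 and 0.25 for number 3, and at 0.29 for BDL replicate 12 with sham replicate 2, which share no number. Every other BDL array with a sham array gave a negative value, between -0.21 and -0.04. A block that also joined BDL replicate 12 with sham replicate 2 was not fitted, so a shared factor of that kind was not tested. With the replicate number as a block, 3 members, 3.61% against 2.77% of all probe sets, were lower at an unadjusted limma p under 0.05. In that fit 0 passed the adjusted threshold, and the median was -0.18. BDL replicate 12 and sham replicate 2 have no partner of the same number, so the differences of that fit rested on numbers 1 and 3 only. The labels do not say that equal numbers are pairs. Low signals, near the floor, limit what the dimmer members can show.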
